A study of Mus musculus with 10 samples.

Results

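The genes described here are the major histocompatibility complex (MHC) class I genes of mouse lymphocytes together with their transactivator: the heavy chain genes H2-K1, H2-D1, H2-Q4, H2-Q6, H2-Q7, H2-Q10, H2-T22 and H2-T23, the light chain gene B2m, and Nlrc5. They were chosen by name, with earlier results of these data known. They are the rows of the deposited count table that carry these 10 symbols, of 56893 genes in the table. The study repressed alternative promoters of Pou2f1, the gene for the octamer-binding factor Oct-1, by CRISPR interference, in which a guide RNA brings a catalytically dead Cas9 to a promoter. Poly(A) RNA was sequenced from primary T cells and primary B cells of mouse spleen. The groups used here are T cells with a guide to promoter P1 (sgRNA-P1) and mock T cells, and B cells with sgRNA-P1, B cells with a guide to promoter P2 (sgRNA-P2) and mock B cells. The strain, sex and age of the mice, how the guides were delivered, what the mock cells received, the repressor form of Cas9 and the number of animals do not appear in the sources used here.

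An MHC class I molecule is a heavy chain bound to the light chain β2-microglobulin (B2m) and a short peptide. The peptides are cut mostly by the proteasome, carried into the endoplasmic reticulum by the TAP transporter, and shown at the cell surface to CD8 T cells and to receptors of natural killer cells. NLRC5 is a nuclear protein of the NOD-like receptor family that binds no DNA by itself and raises transcription of class I genes, B2m and several loading genes together with the RFX, CREB and NF-Y factors bound at their promoters; lymphocytes are among the cells with the most NLRC5 and class I.

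Each group has 2 count columns. They differed by less than sampling noise, with a mean chi-square of 0.00231 to 0.00283 per gene over genes with at least 20 reads, and every gene fitted one fixed split of the group's reads to within 1 read. They were therefore summed and counted as 1 sample, so that each group is 1 library; a difference between 2 groups rests on counting error alone and carries no p-value. The summed reads were 39352816 and 71858511 in the sgRNA-P1 and mock T libraries, and 49066261, 28118839 and 33842813 in the sgRNA-P1, sgRNA-P2 and mock B libraries. Levels are read counts scaled to library size by TMM (CPM), and intervals are 95% counting intervals, which cover counting error only. Pou2f1, the targeted gene, stood at 66.1 CPM in sgRNA-P1 against 138 CPM in mock T cells, and at 91.1 and 86.5 CPM in sgRNA-P1 and sgRNA-P2 against 157 CPM in mock B cells. The labelled cell types matched their markers: 10 T cell markers summed to 5076 and 5114 CPM in the T libraries and to 46.2 to 47.6 CPM in the B libraries, while 8 B cell markers summed to 362 and 384 CPM in the T libraries and to 17141 to 17401 CPM in the B libraries.

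The promoters of the class I genes are shown first, because they carry the sites through which NLRC5 and its partners, NF-κB and the interferon regulatory factors are known to act. RefSeq windows of 300 bases, from 250 before to 50 after the annotated start in build GRCm38.p6, were found for 9 of the 10 genes, all but Nlrc5; where RefSeq lists several starts, the one farthest downstream was used. Stretches of 143 bases are printed 5′ to 3′ on the gene's own strand for both classical heavy chains, for H2-Q4, H2-Q7 and H2-Q10 as neighbours in the Q region with unlike levels, and for B2m. They lie at chr17:34000322-34000464 on the minus strand for H2-K1, and on the plus strand at chr17:35262917-35263059 for H2-D1, chr17:35379437-35379579 for H2-Q4, chr17:35439015-35439157 for H2-Q7, chr17:35469907-35470049 for H2-Q10 and chr2:122147516-122147658 for B2m. Capitals mark matches, on either strand, to any of 5 motifs: the enhancer A κB site GGGGATTCCC, the class I interferon element AGTTTCACTT, the general interferon element GAAANNGAAA (GAAA repeated after 2 bases), the X2 element TGATGAC and the CCAAT box CCAAT. The letters of the κB site and the class I interferon element were read from the H2-K1 window itself, so their match there is by construction.
H2-K1: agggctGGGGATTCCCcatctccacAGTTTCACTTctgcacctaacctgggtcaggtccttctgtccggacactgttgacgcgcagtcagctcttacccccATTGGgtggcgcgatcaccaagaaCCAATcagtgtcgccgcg
H2-D1: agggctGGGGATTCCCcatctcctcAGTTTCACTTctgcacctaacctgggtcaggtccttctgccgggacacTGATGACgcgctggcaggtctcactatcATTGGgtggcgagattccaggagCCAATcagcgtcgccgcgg
H2-Q4: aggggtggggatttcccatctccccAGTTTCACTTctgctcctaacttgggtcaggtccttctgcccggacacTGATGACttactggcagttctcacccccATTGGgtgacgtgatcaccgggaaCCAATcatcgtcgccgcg
H2-Q7: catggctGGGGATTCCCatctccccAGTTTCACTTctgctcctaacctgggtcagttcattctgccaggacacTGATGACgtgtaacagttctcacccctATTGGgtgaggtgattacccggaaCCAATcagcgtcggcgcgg
H2-Q10: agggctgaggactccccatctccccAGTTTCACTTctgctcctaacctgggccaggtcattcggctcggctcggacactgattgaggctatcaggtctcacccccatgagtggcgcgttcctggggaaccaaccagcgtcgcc
B2m: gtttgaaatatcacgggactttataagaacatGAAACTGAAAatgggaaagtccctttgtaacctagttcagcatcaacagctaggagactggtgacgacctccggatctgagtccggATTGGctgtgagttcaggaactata
H2-D1, H2-Q6 and H2-Q7 held the κB site, the class I interferon element, the X2 element and 2 CCAAT boxes in the same order. H2-K1 held these except the X2 element, and H2-Q4 held these except the κB site. H2-Q10 held the class I interferon element alone, with no match to the κB site, the X2 element or the CCAAT box in its whole window. H2-T22 held the class I interferon element, which overlapped its match to the general element, the X2 element and 3 CCAAT boxes, while H2-T23 and B2m each held the general interferon element and 1 CCAAT box. Over all 32851 RefSeq promoters, 0.107% held the κB site, 0.140% the class I interferon element, 3.44% the general element, 3.23% the X2 element and 37.4% the CCAAT box. The octamer ATGCAAAT, the element Oct-1 is known to bind, was present in 1.74% of all promoters and in 0 of these 9. A match is a run of letters, and a missing match says only that these letters are not in the window.

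**Figure D1:**
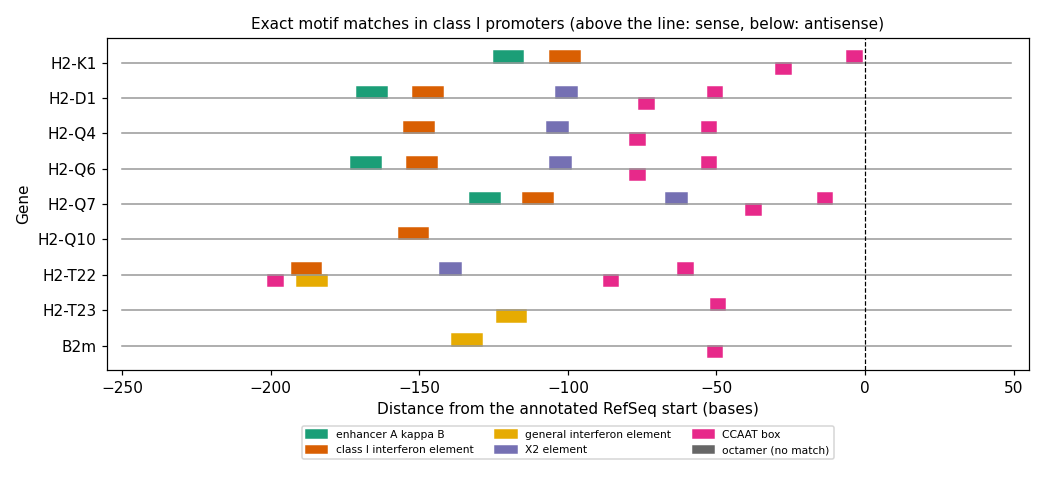
Matches to the 5 motifs in the RefSeq promoter windows of 9 class I genes, by distance in bases from the annotated start (build GRCm38.p6). H2-D1, H2-Q6 and H2-Q7 show the same order of matches, and H2-Q10 shows the class I interferon element alone.

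All 8 heavy chain genes lie on chromosome 17, by the coordinates of the deposited table, for which the submitters' processing notes list mm39 as the mouse build. H2-K1 spans 34214991 to 34219321 on the minus strand. H2-D1, H2-Q4, H2-Q6, H2-Q7 and H2-Q10 follow on the plus strand from 35481706 to 35785460, and H2-T23 and H2-T22 on the minus strand from 36340665 to 36353639. B2m lies on chromosome 2 from 121978167 to 121983564 and Nlrc5 on chromosome 8 from 95160984 to 95253900, both on the plus strand. Heavy chain genes are near copies of one another, which limits how surely reads can be assigned. The 100-base stretches in GENCODE M21 transcripts were searched for in transcripts of other genes. The share found there was 31.5% in H2-T22, 14.1% in H2-Q4, 13.0% in H2-Q6, 12.0% in H2-Q7 and 8.01% in H2-Q10. It was 3.59% in H2-D1, 3.15% in H2-T23, 0.957% in H2-K1 and 0 in B2m and Nlrc5. In H2-T22, 905 of the 1186 shared stretches occur in A930015D03Rik, and in H2-Q4, 306 of the 365 occur in Gm11131. Both partners overlap these genes on the other strand. The shares of H2-T22 and H2-Q4 therefore do not measure likeness to other heavy chain genes. The read length and the treatment of reads with several matches do not appear in the sources used here, so the split of reads among the Q genes and for H2-T22 is uncertain. H2-Q4 shares 496 exonic bases with Gm11131 on the other strand, H2-T22 shares 1011 with A930015D03Rik and Nlrc5 shares 78 with 9330175E14Rik, and whether counting used strand is not given.

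All 10 genes had reads in every library. Together they took 1.01 and 1.03% of the reads in sgRNA-P1 and mock T cells, and 0.606, 0.654 and 0.682% in sgRNA-P1, sgRNA-P2 and mock B cells. Per kilobase of counted exon, B2m was the highest of the 10 in all 5 libraries, at 2089 and 2154 CPM per kb in sgRNA-P1 and mock T cells and at 1496, 1436 and 1437 CPM per kb in sgRNA-P1, sgRNA-P2 and mock B cells. H2-K1 and H2-D1, the classical heavy chains that present peptides to CD8 T cells, came next. In mock T cells H2-K1 reached 1288 and H2-D1 944 CPM per kb, and in mock B cells they reached 788 and 766. These 2 genes made up 79.9 to 81.2% of the heavy chain sum per kilobase in the 5 libraries. H2-Q4, a nonclassical heavy chain, and H2-T23, the Qa-1 molecule that shows leader peptides of other class I chains to natural killer receptors, followed; they stood at 263 and 138 CPM per kb in mock T cells and at 152 and 154 in mock B cells. At the low end, H2-Q6 and H2-Q7, which encode the lipid-anchored Qa-2 molecule, stood at 9.88 and 25.5 CPM per kb in mock T cells and at 15.5 and 9.45 in mock B cells, and H2-Q10 was last in every library at 1.07 to 6.27 CPM per kb.

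**Figure D2:**
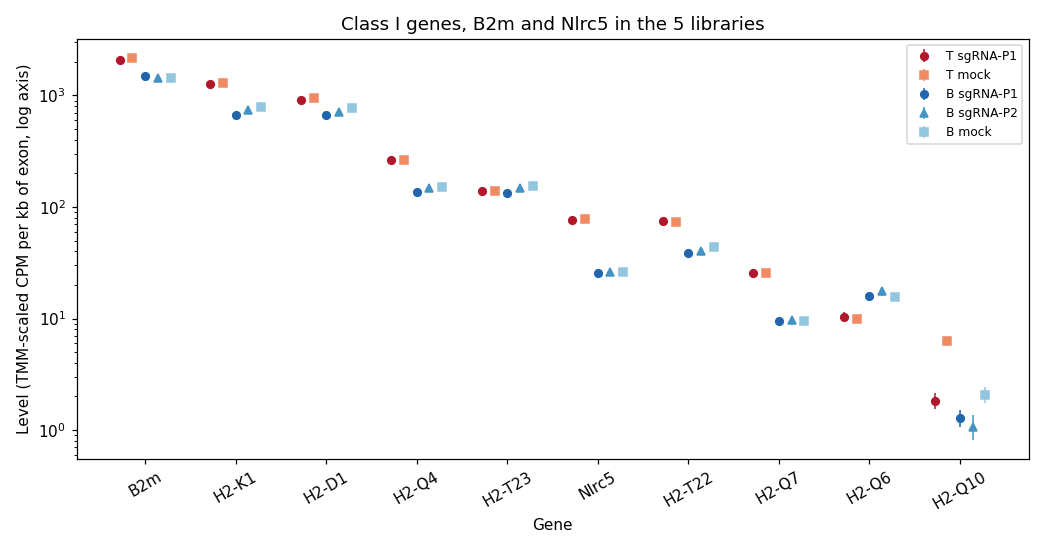
TMM-scaled levels of each class I gene and Nlrc5 in the 5 libraries, on a log axis. Each point is 1 library with its 95% counting interval. H2-Q10 stands lower in each guide library than in its mock counterpart, while the other class I genes lie close together within a cell type.

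H2-Q10 had the largest difference of the 10 genes between guide and mock cells, and it was lower in all 3 guide libraries. Its product is a class I heavy chain that is secreted rather than held at the surface and is known chiefly from liver. It had 316 reads in sgRNA-P1 T cells, or 7.91 CPM (interval 6.73 to 9.25), against 1967 reads in mock T cells, or 27.3 CPM (25.6 to 29.0). In B cells it had 269 reads with sgRNA-P1, or 5.58 CPM (4.66 to 6.59), and 131 reads with sgRNA-P2, or 4.66 CPM (3.57 to 5.89), against 306 reads in mock cells, or 9.05 CPM (7.67 to 10.6). The guide and mock intervals did not overlap within either cell type, and the mock T library stood alone at the top. The guide level was 29.1% of mock in T cells, a log2 fold change of −1.78 (interval −2.04 to −1.54). It was 61.7% of mock for sgRNA-P1 in B cells, or −0.70 (−1.05 to −0.36), and 51.7% for sgRNA-P2 in B cells, or −0.95 (−1.41 to −0.54). A fall beyond the counting interval alone is common here. Of all genes, 10.4% showed one in T cells, and 15.6% and 6.37% for sgRNA-P1 and sgRNA-P2 in B cells. In order of log2 fold change, counted from the lowest, H2-Q10 was number 2 of 10007 genes in T cells and number 13 of 10062 in sgRNA-P1 B cells; these are genes at 5 CPM or more in the higher of both groups. In sgRNA-P2 B cells it met that minimum through the mock library alone, so no place in the order is given there. Both B cell comparisons share the mock B library.

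Reads of H2-Q10 were compared with those of H2-Q7, the gene that shares the most of its sequence, 5.81% of 100-base stretches. H2-Q7 stood at 110 CPM in sgRNA-P1 T cells and 109 CPM in mock T cells, and at 40.2, 40.9 and 40.3 CPM in sgRNA-P1, sgRNA-P2 and mock B cells. H2-Q10 had 0.0718 reads for each read of H2-Q7 in sgRNA-P1 T cells against 0.251 in mock T cells, and 0.139 and 0.114 with sgRNA-P1 and sgRNA-P2 against 0.224 in mock B cells. The ratio was thus lower in each guide library than in its mock library, with the H2-Q7 level within 2% of mock. With the Qa genes H2-Q4, H2-Q6, H2-Q7 and H2-Q10 summed, the log2 fold change was −0.01 in T cells, −0.15 for sgRNA-P1 in B cells and −0.02 for sgRNA-P2 in B cells, since H2-Q4 supplies most of these reads. The deposited exon model of H2-Q10 is 4348 bases in 2 blocks, so that most of the gene's span was counted, introns of its shorter transcripts included. The part of shared or intronic reads in the difference was not tested. Of 4 hepatocyte markers, Apoa1, Ttr and Serpina1a had no read in any library and the list summed to at most 0.0416 CPM.

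A fit over all 5 libraries set the 3 guide libraries against both mock libraries, with cell type as a term. In this edgeR quasi-likelihood fit over 10965 genes, H2-Q10 had a log2 fold change of −1.28, with lower levels in 3 of 3 guide libraries, and an adjusted p of 0.104, and so did not pass the 0.05 threshold. Pou2f1 was the 1 gene that passed (0.00912% of those tested, adjusted p = 4.7e-05), and 0 of the 10 class I genes did; 234 genes, H2-Q10 the 1 member among them, had an unadjusted p under 0.05. DESeq2 called 3 genes (0.0274%), with H2-Q10 among them at a log2 fold change of −1.24 and an adjusted p of 0.000579. In edgeR the call of H2-Q10 turned on the gene filter and on the library left out, as given under the processing settings. The other 9 genes had an adjusted p of 0.999 in edgeR. The test has 2 residual degrees of freedom and treats 3 libraries of different guides and cell types as one condition.

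In T cells the sgRNA-P1 library and the mock library were close for the other 9 genes. One of the 10 was past 1.5-fold, H2-Q10, against a background of 0.05% of 10007 genes lower by that much and 0.11% past it in either direction. Nlrc5 stood at 649 CPM in sgRNA-P1 and 659 CPM in mock T cells, a log2 fold change of −0.02 (interval −0.05 to 0.01). H2-K1 stood at 3733 CPM in sgRNA-P1 and 3784 CPM in mock T cells, or −0.02 (−0.03 to −0.01). H2-D1 stood at 2332 CPM in sgRNA-P1 and 2435 CPM in mock T cells, or −0.06 (−0.08 to −0.05), and B2m at 1796 CPM in sgRNA-P1 and 1853 CPM in mock T cells, or −0.04 (−0.06 to −0.03). The counting intervals of H2-K1, H2-D1 and B2m lie below 0 at this depth, as do those of 10.4% of 10007 genes and of 23.5% of the genes at 100 CPM or more, and the values lie well inside the 5th and 95th percentiles of all genes, −0.16 and 0.15. H2-T23 stood at 399.9 CPM in sgRNA-P1 and 399 CPM in mock T cells, and H2-T22, a ligand of some γδ T cells, at 255 CPM in sgRNA-P1 and 252 CPM in mock T cells. H2-Q4 stood at 690.2 CPM in sgRNA-P1 and 682 CPM in mock T cells, and H2-Q6 at 21.7 CPM in sgRNA-P1 and 20.6 CPM in mock T cells. The intervals of these 4 genes and of H2-Q7 include 0. The median log2 fold change was −0.01 over the 10 genes and 0.00 over the 9 without H2-Q10, beside −0.02 over all genes.

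In sgRNA-P1 B cells 6 of the 8 heavy chain genes were lower than in mock B cells by more than counting error, while B2m and Nlrc5 were not. Over all 10062 genes 15.6% were lower by more than counting error, and 22.9% of the 2476 genes at 100 CPM or more, where counting intervals are narrow. H2-K1 stood at 1982 CPM in sgRNA-P1 and 2316 CPM in mock B cells, a log2 fold change of −0.23 (interval −0.24 to −0.21). H2-D1 stood at 1729.5 CPM in sgRNA-P1 and 1975 CPM in mock B cells, or −0.19 (−0.21 to −0.17). H2-Q4 stood at 351 CPM in sgRNA-P1 and 395 CPM in mock B cells, or −0.17 (−0.21 to −0.12). These 3 heavy chains were thus at 85.6, 87.6 and 89.1% of mock. H2-T22 stood at 132 CPM in sgRNA-P1 and 151 CPM in mock B cells and H2-T23 at 389 CPM in sgRNA-P1 and 445 CPM in mock B cells, each at −0.19. H2-Q6 stood at 33.3 CPM in sgRNA-P1 and 32.4 CPM in mock B cells, and like H2-Q7 had an interval that includes 0. Nlrc5 stood at 215 CPM in sgRNA-P1 and 222 CPM in mock B cells, or −0.04 (−0.10 to 0.02). B2m was on the other side, at 1286 CPM in sgRNA-P1 and 1236 CPM in mock B cells, or 0.06 (0.03 to 0.08).

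H2-Q10 was the 1 gene of the 10 past 1.5-fold in sgRNA-P1 B cells, against a background of 0.258% of 10062 genes lower by that much and 0.735% past it in either direction. The median log2 fold change was −0.18 over the 10 genes and −0.17 over the 9 without H2-Q10, beside −0.01 over all genes, whose 5th and 95th percentiles were −0.27 and 0.27. Over all 10062 genes, 48 were higher and 26 lower past 1.5-fold. With a trend on gene length alone subtracted, 58 were higher and 20 lower. With a joint trend on gene length and transcript GC subtracted, 16 were higher and 17 lower. Both trends were fitted to these same fold changes, and the joint one covered only the 9703 genes with a GC value. How much of the drop in calls came from the genes left out was not tested. The mean transcript GC is 41.2% in B2m and 51.8 to 57.6% in the other 9. After the joint trend was subtracted, the median over the 9 was −0.10, and B2m turned to −0.05. H2-K1 was then at −0.16, H2-D1 at −0.14 and H2-T23 at −0.13.

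In sgRNA-P2 B cells H2-K1, H2-D1, H2-Q4, H2-T22 and H2-T23 were nearer to mock than in sgRNA-P1 B cells, and H2-Q10 was farther from it; both comparisons share the mock library. H2-K1 stood at 2199 CPM in sgRNA-P2 and 2316 CPM in mock B cells, a log2 fold change of −0.07 (interval −0.10 to −0.05). H2-D1 stood at 1841 CPM in sgRNA-P2 and 1975 CPM in mock B cells, or −0.10 (−0.12 to −0.08). H2-T22 stood at 138 CPM in sgRNA-P2 and 151 CPM in mock B cells, or −0.13 (−0.21 to −0.04). These 3 and H2-Q10 were the members lower than mock by more than counting error, beside 6.37% of all 10061 genes and 10.8% of those at 100 CPM or more. H2-Q4 stood at 388 CPM in sgRNA-P2 and 395 CPM in mock B cells, H2-T23 at 431 CPM in sgRNA-P2 and 445 CPM in mock B cells, and H2-Q6 at 36.5 CPM in sgRNA-P2 and 32.4 CPM in mock B cells, with intervals that reach 0. Nlrc5 stood at 222 CPM in both libraries, and B2m at 1235 CPM in sgRNA-P2 and 1236 CPM in mock B cells. The 1 gene past 1.5-fold was again H2-Q10, which met the 5 CPM minimum through mock cells alone, against a background of 0.149% of 10061 genes lower by that much and 0.278% past it in either direction, and the median was −0.04 over the 10 genes and −0.03 over the 9 without it.

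The guides were set against each other in B cells. With sgRNA-P1 over sgRNA-P2, 4 of the 10 genes were lower beyond counting error, beside 9.53% of all 10059 genes and 16.8% of those at 100 CPM or more: H2-K1 at −0.15 (interval −0.17 to −0.13), H2-T23 at −0.15 (−0.19 to −0.10), H2-Q4 at −0.14 (−0.19 to −0.09) and H2-D1 at −0.09 (−0.11 to −0.07). B2m was higher at 0.06 (0.03 to 0.09), and turned to −0.05 once the joint length and GC trend was subtracted. H2-Q10 did not differ beyond counting error, at 0.26 (−0.17 to 0.72), an interval too wide at its read counts to show a smaller difference. None of the 10 genes passed 1.5-fold, against a background of 0.418% of 10059 genes.

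**Figure D3:**
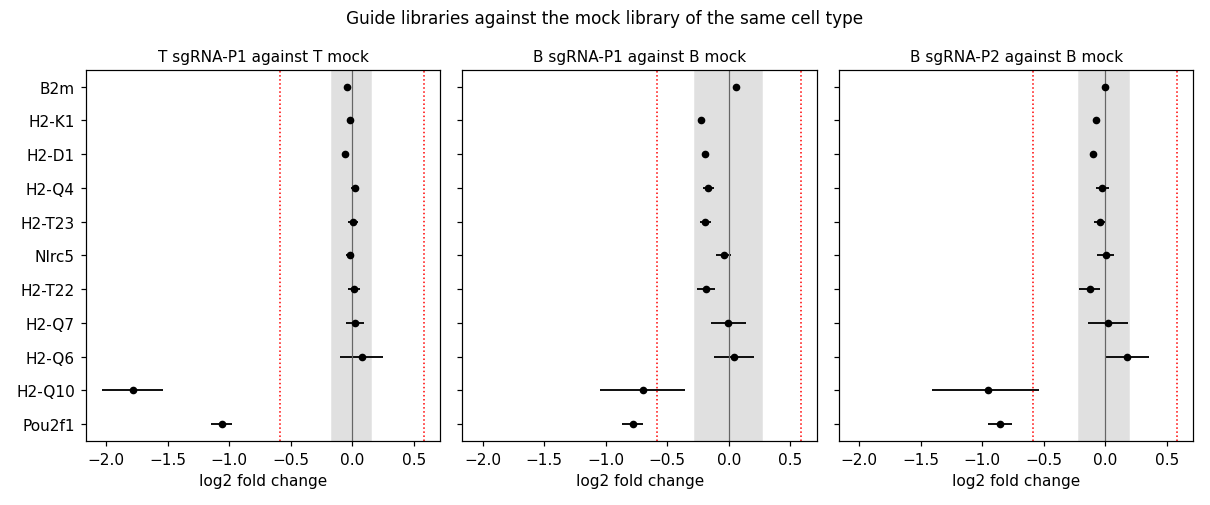
Log2 fold changes of the class I genes, Nlrc5 and Pou2f1 for each guide library over the mock library of its cell type, with 95% counting intervals. H2-Q10 lies at −1.78, −0.70 and −0.95, and the remaining class I genes lie between −0.23 and 0.17.

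The sgRNA-P1 effect in T cells minus that in B cells was taken for each gene, with no test since each arm is 1 library. H2-Q10 was the 1 member whose effects differed by 1.5-fold or more, at −1.09 (interval −1.50 to −0.67), against a background of 1.31% of 9139 genes. H2-K1 at 0.21, H2-T22 and H2-T23 at 0.20, H2-Q4 at 0.18 and H2-D1 at 0.13 were on the other side, because these genes were lower with sgRNA-P1 in B cells and near mock in T cells. Nlrc5 was at 0.02 (−0.05 to 0.09).

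Without a guide, T cells had more class I RNA than B cells at most of these genes. In bulk RNA, fewer cells of a type and less RNA per cell cannot be told apart. Of the 10 genes, 6 were higher by 1.5-fold or more in mock T cells than in mock B cells and 1 was lower; over all 10804 genes 18.6% were higher and 18.4% lower by that much. The median log2 fold change was 0.73, beside 0.02 over all genes, whose 5th and 95th percentiles were −3.34 and 3.10. Nlrc5 had one of the largest differences, at 659 CPM in mock T cells against 222 CPM in mock B cells, or 2.97-fold (log2 1.57, interval 1.52 to 1.62). H2-Q10 was 3.01-fold higher in mock T cells (log2 1.59, 1.34 to 1.85) and H2-Q7 was 2.69-fold higher (1.43, 1.31 to 1.55). The more abundant chains differed less: H2-Q4 was 1.73-fold, H2-T22 1.68-fold and H2-K1 1.63-fold higher in mock T cells. B2m was 1.499-fold higher, just under the threshold, and H2-D1 1.23-fold higher. H2-T23 was 1.12-fold lower in mock T cells, and H2-Q6 was 1.57-fold lower (log2 −0.65, −0.81 to −0.49), the 1 member past 1.5-fold in that direction.

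**Figure D4:**
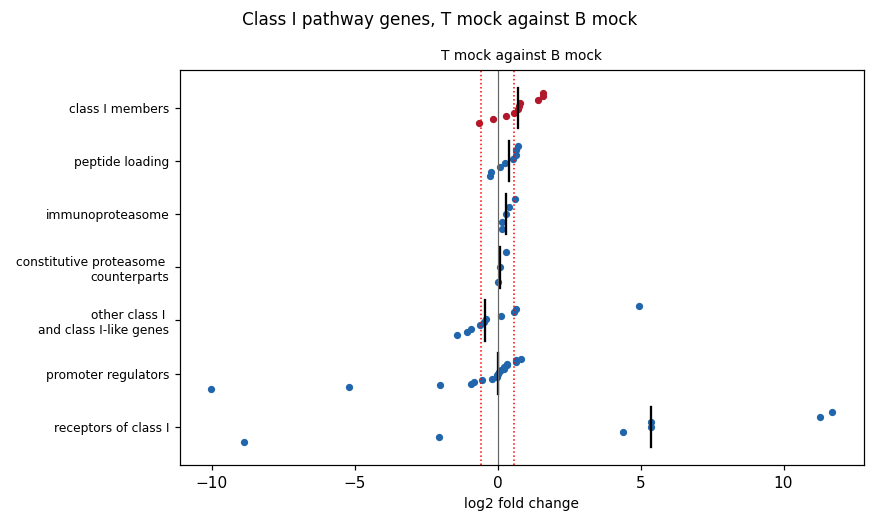
Log2 fold changes in mock T cells over mock B cells, 1 point per gene, with the 1.5-fold lines, the class I genes and Nlrc5 among them. H2-Q10, Nlrc5 and H2-Q7 lie between 1.43 and 1.59, and H2-T23 and H2-Q6 lie below 0.

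The make-up of the class I pool differed between the cell types. H2-K1 had 1.60 and 1.55 reads for each read of H2-D1 in sgRNA-P1 and mock T cells, against 1.15, 1.19 and 1.17 in sgRNA-P1, sgRNA-P2 and mock B cells. Both T values of this ratio lie above the B values, with 1 library per group. How many other pairs of genes separate the cell types in this way was not counted. Between mock T and mock B cells, 18.6% of all 10804 genes were higher and 18.4% lower by 1.5-fold or more. B2m over the sum of the 8 heavy chains, both per kilobase, was 0.776 in sgRNA-P1 and 0.784 in mock T cells. It was 0.890, 0.785 and 0.744 in sgRNA-P1, sgRNA-P2 and mock B cells, so both T values lie within the B range. The sgRNA-P1 B library was the highest of the 5. There the sign of the B2m difference from mock turned once the length and GC trend was subtracted. Nlrc5 exceeded H2-T22 per kilobase in both T libraries and lay below it in all 3 B libraries, and H2-Q7 exceeded H2-Q6 in both T libraries and lay below it in all 3 B libraries.

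The genes that supply class I with peptides moved less than 1.5-fold in each guide comparison. Over all genes, 0.11% passed 1.5-fold in T cells, and 0.735% and 0.278% for sgRNA-P1 and sgRNA-P2 in B cells. At such shares a count of 0 in a short list says little about its genes. Of the 8 genes for peptide loading, none passed 1.5-fold with any guide, and their medians were 0.00 in T cells, 0.01 for sgRNA-P1 in B cells and 0.00 for sgRNA-P2. In sgRNA-P1 B cells the transporter subunits Tap1 and Tap2 were at −0.10 and −0.25 and tapasin, Tapbp, at −0.12, while the chaperones Calr and Canx were at 0.07 and 0.08 and Pdia3, a disulfide isomerase of the loading complex, at 0.13. The 5 immunoproteasome genes encode the inducible catalytic subunits and the PA28 activator. None passed 1.5-fold with a guide. In sgRNA-P1 B cells Psmb8 stood at 91.2 CPM in sgRNA-P1 and 113 CPM in mock B cells (−0.30), Psmb9 at 98.4 CPM in sgRNA-P1 and 120.1 CPM in mock B cells (−0.29), Psmb10 at 57.0 CPM in sgRNA-P1 and 70.3 CPM in mock B cells (−0.30), Psme2 at −0.11 and Psme1 at −0.03. Their median was −0.29 for sgRNA-P1 in B cells, −0.07 for sgRNA-P2 in B cells and 0.05 in T cells, and −0.20 for sgRNA-P1 in B cells once the length and GC trend was subtracted. With that trend subtracted, 4 of the 5 were below 0. The 3 constitutive counterparts Psmb5, Psmb6 and Psmb7 were also below mock in sgRNA-P1 B cells, and Psmb5, at 14.9 CPM in sgRNA-P1 and 19.7 CPM in mock B cells (−0.40), lay farther below it than any immunoproteasome gene. These 3 had medians of −0.05 in T cells, −0.11 for sgRNA-P1 and −0.13 for sgRNA-P2 in B cells.

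**Figure D5:**
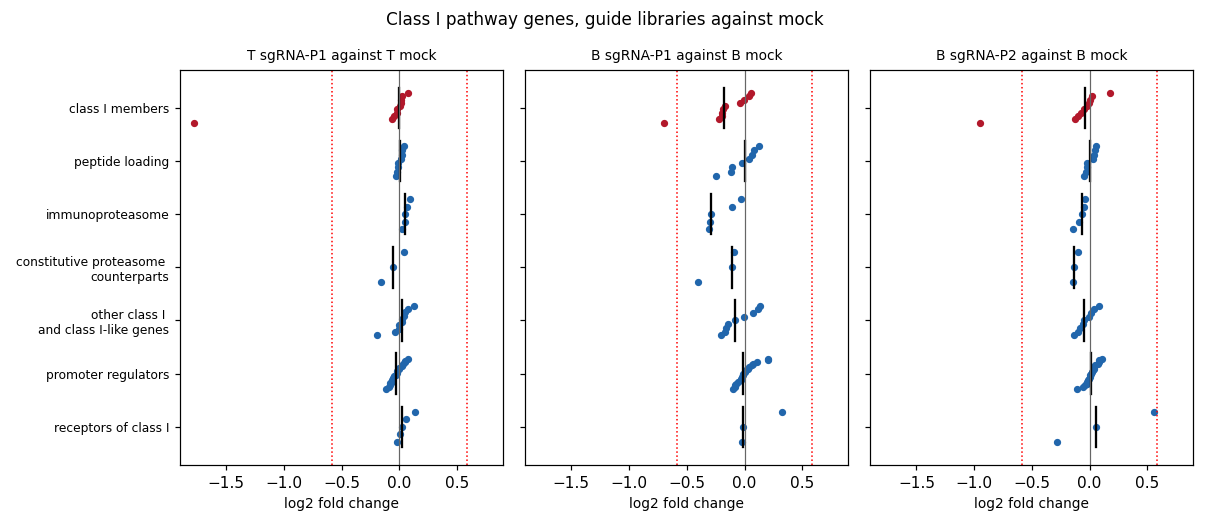
Log2 fold changes of class I pathway genes, 1 point per gene, for each guide library over its mock library. Among them are the class I genes, peptide loading, the immunoproteasome and its constitutive counterparts. Bars are medians. In sgRNA-P1 B cells the immunoproteasome median is −0.29 and the class I median −0.18, and both lie nearer 0 in the other 2 comparisons.

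Between mock T and mock B cells, where 18.6% of all genes were higher and 18.4% lower by 1.5-fold or more, the medians of these lists were 0.40 for loading, 0.30 for the immunoproteasome and 0.07 for its constitutive counterparts. Of the 8 loading genes 3 were higher in T cells by 1.5-fold or more, with none lower: Tapbpl, a tapasin-like editor of peptides, at 0.72, Tap2 at 0.65 and Erap1, which trims peptides, at 0.64; Tap1 was at 0.26 and Calr at −0.23. Of the 5 immunoproteasome genes 1 was past 1.5-fold, Psme2 at 0.62. Other class I and class I-like genes were mixed. Of 10 at 5 CPM or more (20 of 24 listed symbols are in the table), H2-Q2 at 4.94 and Mr1, which presents vitamin metabolites, at 0.66 were higher in T cells. Fcgrt, the neonatal Fc receptor, at −1.42, H2-M3, which presents formylated peptides, at −1.09, Cd1d1, which presents lipids, at −0.93 and H2-K2 at −0.62 were lower. H2-Q5 was at −0.48 and H2-T10, the near copy of H2-T22, at 0.10.

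The factors known to act at class I promoters were also compared. With each guide 0 of the 18 or 19 measured regulators passed 1.5-fold. The shares of all genes past it were 0.11% in T cells, and 0.735% and 0.278% for sgRNA-P1 and sgRNA-P2 in B cells. The medians of the regulators were −0.03 in T cells and −0.01 and 0.01 for sgRNA-P1 and sgRNA-P2 in B cells. Between mock T and mock B cells 3 of 19 were higher in T cells by 1.5-fold or more and 5 were lower. Over all 10804 genes, 18.6% were higher and 18.4% lower by that much. Ciita, the NLRC5 relative that drives class II genes, stood at 0.749 CPM in mock T cells, against 793 CPM in mock B cells (−10.02), and Irf8 at 14.4 CPM in mock T cells, against 531 CPM in mock B cells (−5.21). Rfx5, the DNA-binding RFX subunit, was at −2.02, Irf2 at −0.94 and Stat2 at −0.82. Irf1 at 0.83 and Rfxap at 0.65 were higher in T cells, and Nfkb1 was at −0.20. Nlrc5 and Ciita thus lay on opposite sides, with Nlrc5 higher in T cells.

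Receptors that recognise class I, with Lilrb4a listed beside them, were split by cell type. Cd8a and Cd8b1, the coreceptor chains of CD8 T cells, stood at 396 and 290 CPM in mock T cells, and each had 3 reads in mock B cells, for log2 fold changes of 11.71 (interval 10.23 to 18.01) and 11.26 (9.78 to 17.57). Klrd1 and Klrc1, the CD94 and NKG2 chains that bind the H2-T23 product, were at 5.37 each, and Cd160 was at 4.39. Natural killer markers summed to 5.96 and 5.48 CPM in sgRNA-P1 and mock T cells and to 0.621 to 0.768 CPM in the B libraries, and their part in these receptor levels was not tested. Pirb, an inhibitory receptor for class I, stood at 0.0971 CPM in mock T cells, against 51.9 CPM in mock B cells, or −8.87, and Lilrb4a was at −2.05. None of the receptors at 5 CPM or more passed 1.5-fold with a guide. Of all genes, 0.11% did in T cells, and 0.735% and 0.278% for sgRNA-P1 and sgRNA-P2 in B cells.

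The genes whose levels ran most like those of single members were found by Euclidean distance between centred log2 CPM over the 5 libraries, among 10964 genes. Such a distance takes in the gap between T and B cells and that between guide and mock libraries. Nlrc5 and B2m differed more between cell types than between guide and mock libraries, so nearness to them mostly reflects the cell type gap. Nearest to Nlrc5 were Slc17a9 at 0.03 and Gramd1a at 0.04, and the nearest class I gene was H2-Q7, number 58 in the order, at 0.16. Nearest to B2m were Rictor and Hspa8 at 0.02 and Ttll4 at 0.03. H2-Q10 had no close neighbour: the nearest 3, Galc, Nudt22 and Cd320, were at 1.12, 1.14 and 1.14. For Galc the levels were 5.16 CPM in sgRNA-P1 and 6.86 CPM in mock T cells, and 2.66, 2.10 and 2.60 CPM in sgRNA-P1, sgRNA-P2 and mock B cells, a far smaller guide difference than that of H2-Q10.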

How the data were processed

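The submitters' processing notes name HISAT2, featureCounts and the builds hg38 and mm39, with no versions or settings. The authors deposited raw read counts per gene in 10 columns, 2 for each of 5 groups; 0 count columns were left unused. The members and gene lists were chosen with earlier results of these data known. Columns were checked against one fixed split, summed per group and scaled with TMM (edgeR 4.0.16, R 4.3.3) over all genes. Log2 fold changes carry a prior of 1 read, and 95% intervals are exact conditional binomial intervals (exact Poisson for levels) on reads divided by 2, since 72.0 to 74.8% of the sums under 10 were even once 1 read, lost in rounding, was added. Genes at 5 CPM or more in the higher group were compared, with 1.5-fold as the size rule. The edgeR quasi-likelihood fit over the 5 summed libraries had cell type as covariate and Benjamini-Hochberg adjustment over all genes tested; DESeq2 1.42.0 was an alternative. The script was tested on simulated data. Named from each pathway list were the 4 genes with the highest CPM and any past 1.5-fold, and for Nlrc5, B2m and H2-Q10 the 3 nearest genes; Psmb10 and Tapbp were added after their values were seen. Some genes that the rule names are not reported here. The alternatives were other scalings, priors and CPM minimums, single columns, length and GC trends (GENCODE M21 transcripts) and near copies summed.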

Additional observations from a re-analysis of the deposited data

Results flagged for a closer look

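B2m was the 1 class I gene whose sgRNA-P1 effect had opposite directions in the T and B cells with counting intervals clear of 0 in both. It stood at 1796 CPM in sgRNA-P1 and 1853 CPM in mock T cells (log2 fold change −0.04), and at 1286 CPM in sgRNA-P1 and 1236 CPM in mock B cells (0.06). The effect in T cells minus that in B cells was −0.10 (counting interval −0.13 to −0.07); the difference was not tested, since each group is 1 library. With the length and GC trend subtracted, an alternative chosen after seeing the data, it was −0.07, and B2m lay below mock in both cell types.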

How the results depend on the processing

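No paired analysis was possible because the 2 columns of each group are one library divided, so their replicate numbers mark no separate samples. With near copies summed into 6 units, 0 units were past 1.5-fold in each of the 3 guide comparisons (1 gene of 10 otherwise) and 3 between mock T and mock B cells (7 otherwise). With a minimum of 20 CPM, 0 of 9 genes were past 1.5-fold for sgRNA-P1 and for sgRNA-P2 in B cells, because H2-Q10 lies under that minimum there. In the fit of any guide against mock, 1 class I gene, H2-Q10, passed with DESeq2, with edgeR's filterByExpr (adjusted p = 0.0252) and with no filter beyond 10 reads in all (adjusted p = 0.00168), against 0 in the fit as reported; on total reads its adjusted p was 0.0928. Leaving out 1 library or 1 column, the count ranged from 0 to 1. The log2 fold change of H2-Q10 in edgeR was −0.80 without the sgRNA-P1 T library, and also −0.80 without the mock T library. When a T library is dropped, the cell type term takes up the other, so both values rest on the B libraries alone. Without the mock B library the log2 fold change was −1.77, which rests on the T libraries alone. The log2 fold change was −1.48 without the sgRNA-P1 B library and −1.29 without the sgRNA-P2 B library. A fit without 1 library has 1 residual degree of freedom, so only effect sizes are given for these fits. Why the T and B values differ in size was not tested. With single columns, each group still 1 library, the counts past 1.5-fold were 1 for each guide comparison, 0 between the guides, 1 for the difference of effects, and 8 between mock T and mock B cells, where B2m passed, as it did on total reads and with the length and GC trend (8 each). The sign of small fold changes turned for H2-Q4, H2-Q7, H2-T22 and H2-T23 in T cells with single columns. For sgRNA-P1 against mock in B cells it turned for H2-Q7 with single columns and for H2-Q7 and B2m with the length and GC trend, which also turned both against sgRNA-P2. For sgRNA-P2 against mock it turned for B2m with DESeq2 size factors, 1 single column and the length trend, and for Nlrc5 with either trend. Over all genes the calls for sgRNA-P1 against mock in B cells were 48 higher and 26 lower. They were 58 and 20 with the length trend, and 16 and 17 with the length and GC trend. Calls for sgRNA-P1 against sgRNA-P2 were 30 and 12. They were 34 and 11 with the length trend, and 11 and 11 with the length and GC trend. Genes without a GC value were left out of the length and GC trend, which kept 9703 of 10062 and 9700 of 10059 genes. Depth limits H2-Q10 most, with 131 to 1967 reads a library.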
